A study of Homo sapiens with 32 samples.

Results

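Knockout of IGF2BP2 was compared with parental cells in HCT116, a human colorectal carcinoma line, while both were treated with tunicamycin. The comparison rests on 10 of the 32 poly(A)-selected RNA libraries of the series, taken by their column names: 6 knockout libraries and 4 parental libraries, with the replicate number kept as a term of the model. All cells, parental ones included, carry OsTIR1 under a doxycycline-inducible promoter together with a puromycin marker (Tet-OsTIR1-PURO). The knockout libraries come from 3 clones named B7, F6 and G6, each grown from a single GFP-positive cell sorted after transient transfection with a Cas9 plasmid, and each clone gave 2 libraries. The parental libraries come from 2 parental samples with 2 libraries each. The labels state 5 µg/mL tunicamycin for 4 h for the parental cells and for the clones of another knockout; dose and time for B7, F6 and G6 are not stated there. Libraries of a clone share that clone, so p-values over libraries measure in part the spread between libraries of the same cells.

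IGF2BP2 belongs to a family of RNA-binding proteins, with IGF2BP1 and IGF2BP3, that carry RNA recognition motifs and KH domains and bind messenger RNAs in the cytoplasm. Family members are known for effects on the stability, location and translation of their target mRNAs, for recognising transcripts marked with N6-methyladenosine (m6A), and for high expression in many tumours. Tunicamycin blocks N-linked glycosylation and so loads the endoplasmic reticulum with unfolded protein, to which cells respond through the sensors ATF6, IRE1 and PERK, a programme called the unfolded protein response (UPR).

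The guides define what was edited and are therefore shown, 5′ to 3′, as the labels give them, beside the stretch of the first coding exon that holds both target sites. Positions are from a match to GRCh38 with GENCODE 29. Clones B7 and F6 share a guide whose target is chr3:185824895-185824914, followed by the PAM CGG. Clone G6 was made with another guide, targeting chr3:185824837-185824856 and followed by the PAM AGG. Both sites are antisense to the mRNA and lie in exon 1 of 16 of transcript IGF2BP2-204, within the coding sequence. Cas9 cuts 3 bases from the PAM, which puts the breaks in codons 17 and 36.
Guide of B7 and F6: gagctgccggaggtcgtcgg
Guide of G6: aggcgtagccggacttcagc
Start of the coding sequence, chr3:185824832-185824960, minus strand, with the 2 target sites in capitals: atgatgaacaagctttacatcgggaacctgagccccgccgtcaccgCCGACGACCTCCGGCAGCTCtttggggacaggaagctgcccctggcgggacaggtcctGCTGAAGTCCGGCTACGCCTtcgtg
The alleles left in each clone were not analysed here, and counts per gene do not show whether the remaining transcripts carry an edit.

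IGF2BP2 mRNA (ENSG00000073792_16, chr3:185643739-185825056, minus strand) was lower in all 3 clones and was the single gene that edgeR called across the transcriptome. Calls are edgeR's wherever no other tool is named. Levels are given as CPM, a library's counts scaled to a common total by the TMM method. The transcript stood at 202.1 and 188.3 in the libraries of parental sample 1 and at 204.3 and 183.6 in those of parental sample 2. It stood at 101.06 and 101.3 in clone B7, at 116.2 and 114.1 in clone F6 and at 108.1 and 101.07 in clone G6. The groups did not overlap, a wide gap lay between them, and clone F6 kept the most transcript. The means were 107 ± 6.93 CPM (SD, n = 6) and 195 ± 10.2 CPM (SD, n = 4). On the log2 scale knockout minus parental was -0.86 (SE 0.050, edgeR adjusted p 1.63e-05), so that 55.1% of the parental level remained, with a 95% interval of 51.1 to 59.5%. By clone the remaining level was 52.5% in B7, 59.0% in F6 and 53.9% in G6. The clones did not pass the test of a difference among themselves at this gene (edgeR adjusted p 0.0989). When the counts of each line were first summed, which leaves 3 clones against 2 parental samples, the log2 fold change was -0.86 and the edgeR adjusted p 0.0513, just outside the threshold of 0.05.

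**Figure D1:**
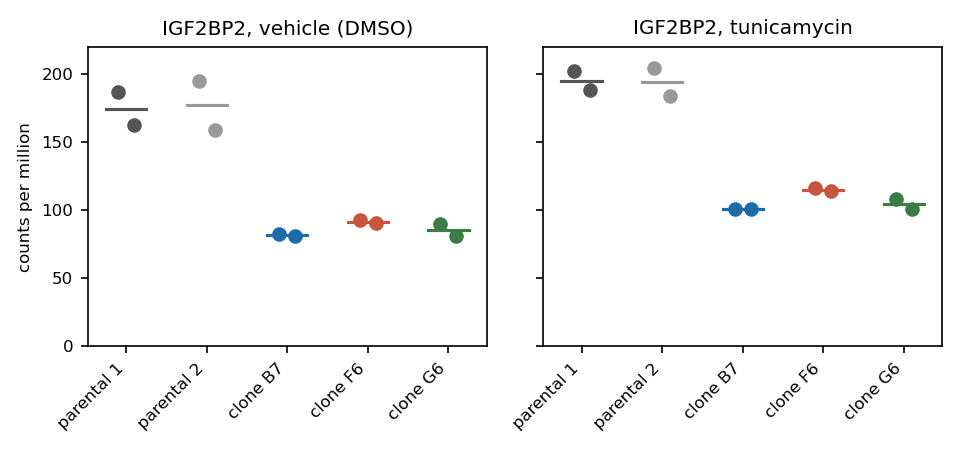
IGF2BP2 in CPM (vertical axis) in each library of the 2 parental samples and the 3 knockout clones, in DMSO (left) and tunicamycin (right); points are libraries and short lines are line means. In tunicamycin the 6 knockout libraries sit between 101.06 and 116.2 CPM and the 4 parental libraries between 183.6 and 204.3 CPM.

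The same lines were also sequenced in the vehicle DMSO, in other libraries. There IGF2BP2 stood at 176 ± 18.0 CPM (SD, n = 4) in parental and 86.3 ± 5.20 CPM (SD, n = 6) in knockout libraries, a log2 fold change of -1.02 and 49.3% of the parental level. The difference between the fold changes in tunicamycin and DMSO was 0.16 on the log2 scale (SE 0.053, unadjusted p 0.0054, edgeR adjusted p 0.999) and was not called. The 2 libraries titled as controls of clone G6 have a treatment label that says tunicamycin. They were taken as DMSO by title, and HSPA5, the chaperone BiP that the UPR induces, stood at 821 and 991 CPM in them. The DMSO libraries of B7, F6 and the parental samples ran from 773 to 1108 CPM, and the 10 tunicamycin libraries from 9007 to 10896 CPM.

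No gene outside the locus passed the test over all genes. Of 14419 genes tested in tunicamycin, 1 was called (0.00694%), and it was IGF2BP2 itself. At an unadjusted p under 0.05, 853 genes were higher (5.92%) and 776 were lower (5.38%) in the knockout. The groups did not overlap for 107 genes with the knockout on the higher side (0.742%) and for 102 with the knockout on the lower side (0.707%). In this fit the 95% interval of the log2 fold change lay within ±0.5 for 9818 genes (68.1%), with a median half-width of 0.22. These intervals, here and in the lists below, treat libraries of a line as independent. Libraries of a line were correlated (0.41 in limma), so the intervals can be too narrow as limits on a knockout effect. The count depended on the clones included. Leaving out clone G6 gave 94 called genes (41 higher, 53 lower). Leaving out F6 gave 21 (15 higher, 6 lower) and leaving out B7 gave 1. Genes called higher without G6 included TP53INP1 and others on chromosome 8, whose genes were higher in clone B7 (described below). No fit left out both G6 and that chromosome. DESeq2 with the same replicate term called 37 genes (13 higher, 24 lower). A fit with each line as a term, which asks only about the spread between libraries of the same line, called 1388 genes (9.63%).

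The genes named next were ranked by unadjusted p among those with no overlap between groups. Beside IGF2BP2 none of these 23 was called by edgeR, while DESeq2 with the same replicate term called 20 of them, all but TTC13, KIAA1217 and TRIM36. Their values are given as descriptions. TP53INP1, a p53 target linked to autophagy and cell death, stood at 7.54, 9.38, 8.50 and 8.11 CPM in the parental libraries. It stood at 12.2 and 13.85 CPM in B7, 12.5 and 13.04 CPM in F6 and 10.97 and 9.99 CPM in G6. The knockout libraries were all higher, and G6 lay closest to the parental range. Its log2 value was 0.53 (SE 0.107, edgeR adjusted p 0.376), and in DMSO 0.64. The adjusted p of TP53INP1 was 0.0179 with DESeq2 and 0.0182 with edgeR without clone G6. The gene lies on chromosome 8, whose genes are described below for clone B7.

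The 12 genes named on the higher side had log2 fold changes of 0.21 to 0.53, each with an adjusted p of 0.376 in edgeR. MARCHF7, a ubiquitin ligase, was at 89.5 ± 7.61 CPM (SD, n = 4) in parental and 108 ± 5.06 CPM (SD, n = 6) in knockout libraries. Clone values were close for this gene, at 0.24 in B7, 0.33 in F6 and 0.28 in G6 on the log2 scale. PRKAB2, a regulatory subunit of the energy sensor AMPK, differed by 0.30 (SE 0.063). SECISBP2L, a relative of the protein that reads selenocysteine signals in mRNAs, differed by 0.21 in tunicamycin and by 0.03 in DMSO. UTRN, the dystrophin relative utrophin, differed by 0.47 and PHACTR2, a phosphatase and actin regulator, by 0.44. For these 2 genes the clones differed among themselves (edgeR adjusted p 0.00577 and 0.00508), with UTRN at 0.63 in B7, 0.55 in F6 and 0.23 in G6. The other 6 were EXPH5, CRNKL1, FAM117B, SCAMP1, TTC13 and KIAA1217.

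On the lower side FLOT1, which encodes the membrane scaffold protein flotillin-1, came nearest to a call after IGF2BP2. It stood at 66.05 and 54.2 CPM in parental sample 1 and at 71.0 and 52.4 CPM in parental sample 2. It stood at 44.7 and 40.7 CPM in B7, 50.01 and 39.4 CPM in F6 and 51.5 and 44.8 CPM in G6. Every knockout library was lower than every parental library, although replicate 1 was the higher library in all 5 lines. Knockout minus parental was -0.42 on the log2 scale (SE 0.060, edgeR adjusted p 0.105) in tunicamycin and -0.32 (adjusted p 0.0237 in the same test) in DMSO. Without clone G6 the adjusted p in tunicamycin was 0.00945 and with DESeq2 it was 4.47e-06, within 2.77e-06 to 1.00 over the 25 alternatives.

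FSTL3, a secreted inhibitor of activin, stood at 23.6 ± 2.56 CPM (SD, n = 4) in parental and 17.7 ± 2.07 CPM (SD, n = 6) in knockout libraries. The log2 fold change of FSTL3 was -0.41 in tunicamycin (edgeR adjusted p 0.376, DESeq2 adjusted p 0.0205) and -0.49 in DMSO, where it was called (edgeR adjusted p 0.0237). IGF2BP2, FLOT1 and FSTL3 were the 3 genes called in DMSO, of 14564 tested (0.0206%). PEG10, an imprinted gene derived from a retrotransposon, stood at 30.8 ± 2.11 CPM (SD, n = 4) in parental and 21.6 ± 3.46 CPM (SD, n = 6) in knockout libraries. It was lowest in F6, at 17.6 and 16.8 CPM, and the clones differed (edgeR adjusted p 0.00173). COL9A3, a collagen chain, had a log2 fold change of -0.59 and TGM2, a protein cross-linking enzyme, of -0.53. JARID2, a partner of the Polycomb complex PRC2, was at 48.2 ± 1.36 CPM (SD, n = 4) in parental and 39.3 ± 3.34 CPM (SD, n = 6) in knockout libraries. RAB36, WDR54, UNC5B, SEPHS2 and TRIM36 completed the 12 names, and the log2 values of the 11 genes other than IGF2BP2 ran from -0.59 to -0.21.

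**Figure D2:**
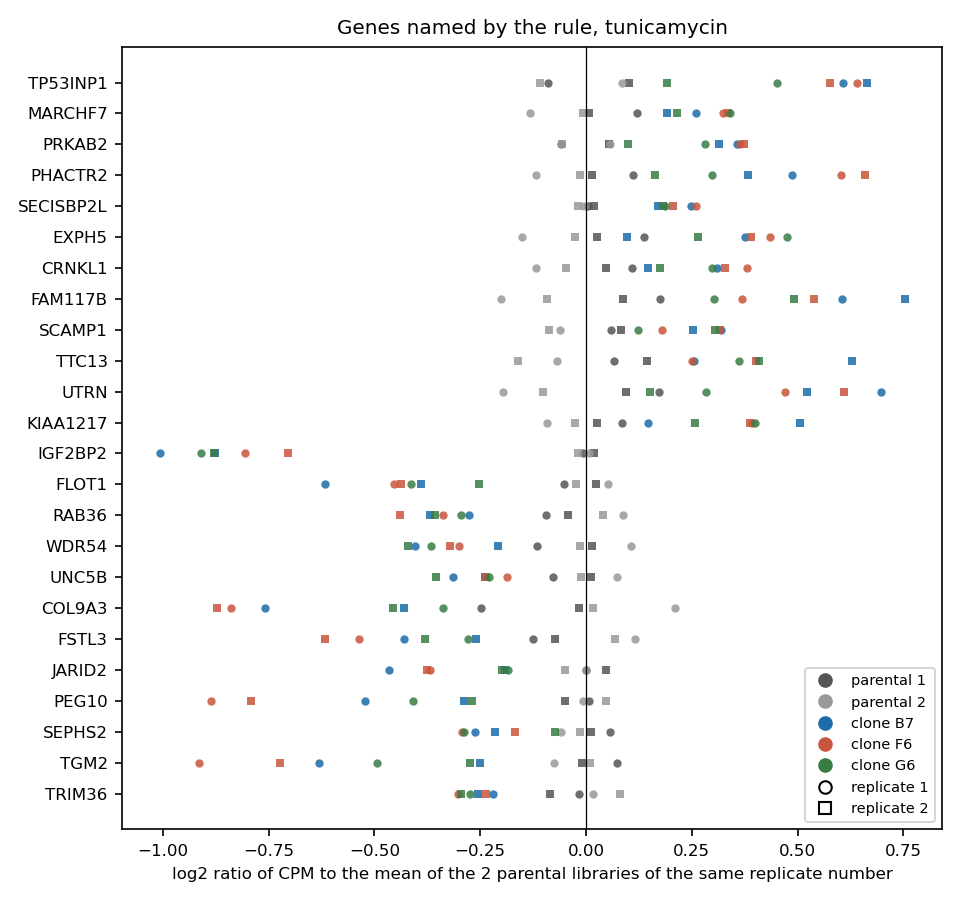
Genes named by the rule (rows), with the log2 ratio of each tunicamycin library to the mean of the 2 parental libraries with the same replicate number (horizontal axis); colours are lines, circles replicate 1 and squares replicate 2. IGF2BP2, at a fitted log2 fold change of -0.86, stands apart from the other 23 genes, which range from -0.59 to 0.53.

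Within the family, IGF2BP3 was present and IGF2BP1 nearly absent. Per kilobase of annotated exon, mean parental levels in tunicamycin were 41.1 CPM for IGF2BP2, 8.48 CPM for IGF2BP3 and 0.0450 CPM for IGF2BP1, which was too low to test. IGF2BP3 stood at 74.4, 72.9, 71.2 and 70.3 CPM in the parental libraries, at 67.7 and 61.5 CPM in B7, 70.5 and 72.2 CPM in F6 and 99.7 and 90.8 CPM in G6. The G6 libraries were the high ones, with a log2 fold change of 0.40 for that clone against -0.15 in B7 and -0.02 in F6. Over all clones the change was 0.10 (SE 0.120, unadjusted p 0.431 in edgeR). IGF2BP3 differed among the clones in edgeR's test of the 3 (adjusted p under 0.05). The 7 tested neighbours of IGF2BP2 on chromosome 3, among them SENP2, TRA2B and ETV5, had a median log2 fold change of 0.01 and none had an unadjusted p under 0.05.

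mRNAs that the literature reports as bound by IGF2BP proteins were listed without regard to how they moved. Of 20 listed, 18 were tested and 0 were called by edgeR or DESeq2. At an unadjusted p under 0.05, 2 were higher (11.1%) and 3 lower (16.7%), against 5.92% and 5.38% of all genes tested. Without clone F6 edgeR called CDK6, a cell cycle kinase, at 0.49 (adjusted p 0.0268). With all 3 clones CDK6 had 0.19 (edgeR adjusted p 0.786). Its knockout libraries ran from 83.5 to 220 CPM, on both sides of the 132 to 151 CPM of the parental libraries. The median log2 fold change of the list was -0.11, against 0.01 over all genes tested, and 13 of 18 were below 0. MYC, the growth-promoting transcription factor, stood at 533 ± 134 CPM (SD, n = 4) in parental and 481 ± 93.0 CPM (SD, n = 6) in knockout libraries, a change of -0.13 (SE 0.083). MYC was lowest in B7, at -0.29, although it lies on chromosome 8, where most genes were higher in that clone (described below); without it the list median was -0.09. HMGA2, an architectural chromatin protein and an often cited target of IGF2BP2, had a change of 0.11 (SE 0.045, unadjusted p 0.0303 in edgeR). Its relative HMGA1 had -0.23 with a clear split between clones, at -0.60 in B7, 0.10 in F6 and -0.26 in G6. CCND1, which encodes cyclin D1, had -0.14, TK1, the thymidine kinase of the S phase, had -0.14, and ACTB, beta-actin, had -0.14. The noncoding RNA H19 stood at 0.544 to 0.745 CPM in parental and 0.0538 to 0.321 CPM in knockout libraries, a change of -1.64 (SE 0.335, unadjusted p 0.000386, edgeR adjusted p 0.376) that rests on a few counts per library. SLC2A1, the glucose transporter GLUT1, had -0.33 over the 3 clones, with 0.10 in B7, -0.90 in F6 and -0.37 in G6.

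IGF2BP2 is also known for binding mRNAs of the insulin-like growth factor pathway and of mitochondrial respiration, so these lists were examined. Of 10 tested genes of IGF and insulin signalling, 2 were lower at an unadjusted p under 0.05 (20%, against 5.38% of all genes tested). They were IGFBP2, a secreted IGF-binding protein, at -0.22 (SE 0.061), and the kinase AKT1 at -0.13. The receptors IGF1R and INSR and the adaptors IRS1 and IRS2 had values from -0.04 to 0.23 and none had an unadjusted p under 0.05. Of the 26 oxidative phosphorylation genes tested, 0 were called and 20 lay below 0 with a median of -0.06, while 51.7% of all genes tested lay above 0. Medians by clone were -0.10 in B7, 0.02 in F6 and -0.11 in G6. At an unadjusted p under 0.05, 2 of the 26 were lower (7.69%, against 5.38% of all genes tested). The lower ones were UQCRC1, a core subunit of complex III, at -0.09, and SDHA, the flavoprotein of complex II, at -0.54. SDHA was counted at only 1.18 to 3.12 CPM, was lowest in F6 and shares sequence with pseudogene copies, so its counts are uncertain. The 95% interval lay within ±0.5 for 21 of these 26 genes.

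The UPR genes are the part of the transcriptome that tunicamycin acts on most directly. HSPA5 stood at 10896, 9842, 9799 and 9205 CPM in the parental libraries. It stood at 9966 and 9007 CPM in B7, 9214 and 9252 CPM in F6 and 9664 and 9896 CPM in G6. The groups overlapped, and the log2 fold change was -0.06 (SE 0.052, unadjusted p 0.270 in edgeR). The 12 targets of ATF6, which are chaperones and degradation factors of the endoplasmic reticulum, had a median change of -0.08, with 10 of 12 below 0. None was called by edgeR, and DESeq2 called SDF2L1 (adjusted p 0.0472). At an unadjusted p under 0.05, 4 were lower (33.3%, against 5.38% of all genes tested). They were SDF2L1 at -0.19, CALR (calreticulin) at -0.13, MANF at -0.11 and HYOU1 at -0.08. HSP90B1, the chaperone GRP94, and SEL1L, part of the degradation complex, were both at 0.13. For all 12 the 95% interval lay within ±0.5, and none differed among clones, where the medians were -0.07, -0.07 and -0.08 in B7, F6 and G6. The list median was also -0.08 in DMSO, so the shift was not particular to tunicamycin. The change in tunicamycin minus that in DMSO had a median of 0.03 and was above 0 for 8 of the 12 genes.

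Targets of XBP1, the transcription factor downstream of IRE1, had a median of -0.03 over 19 genes. XBP1 itself stood at 257 ± 33.0 CPM (SD, n = 4) in parental and 248 ± 20.2 CPM (SD, n = 6) in knockout libraries, and DNAJB9, a co-chaperone, at 162 ± 12.7 and 166 ± 10.8 CPM in the same groups. At an unadjusted p under 0.05, 1 of the 19 was lower (5.26%, against 5.38% of all genes tested). It was SEC61A1 of the translocation channel, with a change of -0.08. LMAN1, a cargo receptor for export to the Golgi, had -0.89 in G6 against 0.01 in B7 and 0.02 in F6. The 8 sensors and close regulators, among them ERN1 (IRE1), EIF2AK3 (PERK) and ATF6, had a median of 0.00 and ran from -0.14 to 0.04. The interval lay within ±0.5 for all 8.

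The targets of ATF4 and CHOP, the PERK arm, had a median of -0.04 over 20 genes, with 0 called. At an unadjusted p under 0.05, 5 of 20 were lower, as were 5.38% of all genes tested. These 5 were the factors ATF4 at -0.11 and CEBPB at -0.18, the pseudokinase TRIB3 at -0.11, the mTORC1 inhibitor DDIT4 at -0.17 and the serine enzyme SHMT2 at -0.13. DDIT3, which encodes CHOP, stood at 236 ± 29.4 CPM (SD, n = 4) in parental and 214 ± 25.6 CPM (SD, n = 6) in knockout libraries, a change of -0.13 (SE 0.063). In this list the change in tunicamycin minus that in DMSO was below 0 for 19 of 20 genes. The median was -0.10, against -0.002 over all genes tested in tunicamycin. Of the 20, 6 had an unadjusted p under 0.05 for that difference. Across all 15178 genes tested for it, 0 were called by edgeR (0%) and 0 by DESeq2, and 537 had an unadjusted p under 0.05 (3.54%). In DMSO alone the median of the list was 0.04.

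**Figure D3:**
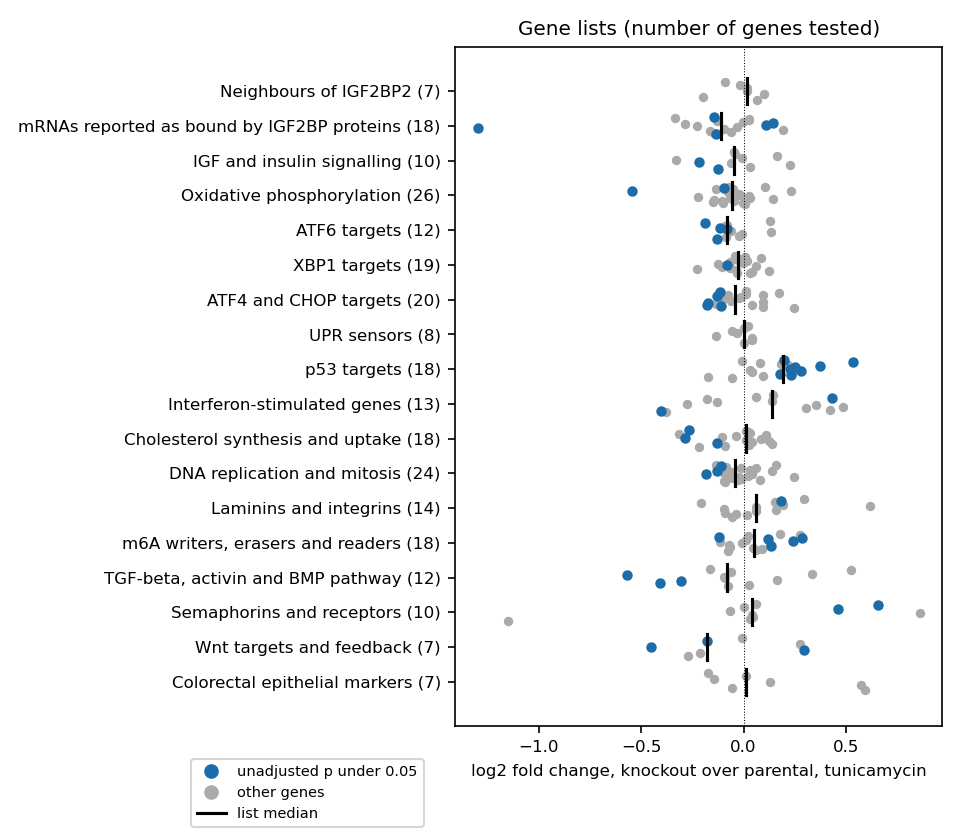
Log2 fold change of knockout over parental libraries in tunicamycin (horizontal axis) for the genes of each list (rows, number tested in brackets); blue points have an unadjusted p under 0.05, grey points do not, black bars are list medians, and values beyond ±1.3 are drawn at the edge. The UPR lists crowd around 0, with medians of -0.08 to 0.00, and the p53 list has its median at 0.19.

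Targets of p53, the stress-responsive tumour suppressor, had the highest median of the 20 lists with tested genes. None of 18 tested genes was called by edgeR, while DESeq2, and edgeR without clone G6, called TP53INP1. The median log2 fold change was 0.19, 15 of 18 lay above 0 (51.7% of all genes tested did), and 8 were higher and 0 lower at an unadjusted p under 0.05 (5.92% and 5.38% of all genes). In 4 of them (ZMAT3, RRM2B, CCNG1 and TP53INP1) all 6 knockout libraries lay above all 4 parental libraries, as for 0.742% of all genes. ZMAT3, an RNA-binding growth suppressor, stood at 37.7 ± 1.71 CPM (SD, n = 4) in parental and 43.2 ± 2.56 CPM (SD, n = 6) in knockout libraries, with clone values of 0.14, 0.24 and 0.22 in B7, F6 and G6. CCNG1, cyclin G1, had 0.12, 0.24 and 0.17 in the same order. CDKN1A, which encodes the cell cycle inhibitor p21, stood at 184 to 192 CPM in parental libraries, at 197 and 192 CPM in B7, 191 and 185 CPM in G6, and 284 and 269 CPM in F6. The F6 libraries stood far above the rest, at 0.56 for that clone. Those of B7 lay at or just above the upper end of the parental range. MDM2, the ubiquitin ligase of p53, had 0.47 in F6 against 0.09 in B7 and 0.08 in G6, and the death receptor FAS had 0.54, 0.21 and 0.05 in F6, B7 and G6. PHLDA3, an inhibitor of AKT, and BTG2, an antiproliferative gene, completed the 8, at 0.25 and 0.23. RRM2B, a ribonucleotide reductase subunit, had 0.73 in B7 against 0.17 in F6 and 0.15 in G6. RRM2B and TP53INP1 lie on chromosome 8; without these 2 genes the median of the list was 0.18, with 13 of 16 above 0 and 6 of 16 higher at an unadjusted p under 0.05. List medians by clone were 0.13 in B7, 0.22 in F6 and 0.06 in G6. In DMSO the list median was 0.20.

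Genes of the m6A machinery were listed because family members read this mark. Of 18 tested, 0 were called and the median was 0.05. At an unadjusted p under 0.05, 4 were higher (22.2%) and 1 was lower (5.56%), against 5.92% and 5.38% of all genes tested. METTL14, of the methyltransferase core, stood at 43.3 ± 2.22 CPM (SD, n = 4) in parental and 47.3 ± 1.56 CPM (SD, n = 6) in knockout libraries, with every knockout library above every parental one. The readers YTHDC1 and YTHDC2 had changes of 0.12 and 0.29, and YTHDF1 had -0.12. VIRMA, a scaffold of the writer complex, had 0.46 in B7 and 0.12 in both F6 and G6, and YTHDF3 had 0.63 in B7 and 0.06 in both others. VIRMA and YTHDF3 lie on chromosome 8, and without them the list median was 0.03.

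In the other lists edgeR called no gene in tunicamycin with all clones in the fit. DESeq2 called FSTL3, of the TGF-beta, activin and BMP list. Without clone G6 edgeR called STARD4, SEMA3C, NRP1 and the laminin LAMB1 (adjusted p 0.0212, 0.0182, 0.00229 and 0.00389), and without F6 it called SEMA3A and KRT8 (0.0296 and 0.0437). Beside the counts that follow, 5.92% of all genes tested were higher and 5.38% lower at an unadjusted p under 0.05. The 24 genes of DNA replication and mitosis had a median of -0.04, with 3 lower at an unadjusted p under 0.05 (12.5%). They were E2F1 at -0.18, MCM5 at -0.13 and RRM2 at -0.11. Cholesterol genes had a median of 0.01, and 3 of 18 were lower at an unadjusted p under 0.05, among them the sterol carrier STARD4 at -0.27 and the synthase FDPS at -0.13. Interferon-stimulated genes had a median of 0.14, with -0.29 in B7, 0.45 in F6 and 0.03 in G6. RIGI, a sensor of viral RNA, was at 17.6 and 17.4 CPM in F6 against 8.64 to 10.5 CPM in parental libraries. In the TGF-beta, activin and BMP list ID1, a target of BMP signalling, had -0.31 over the 3 clones and was lowest in F6, at -0.59. In the semaphorin list SEMA3C had 0.46 and SEMA3E had 0.66, both at an unadjusted p under 0.05. SEMA3E was low, at 0.855 to 1.27 CPM in parental and 1.24 to 2.29 CPM in knockout libraries, and the groups overlapped. The receptor subunit NRP1, neuropilin-1, was at 16.9 to 19.4 CPM in parental libraries, 15.5 and 20.03 CPM in G6, 5.00 and 3.87 CPM in F6 and 1.87 and 2.54 CPM in B7. Among laminins and integrins the median was 0.06 and LAMC1 was the one gene higher at an unadjusted p under 0.05, with 0.18. Of 7 Wnt genes tested, NOTUM, which inactivates Wnt ligands, had -0.45, the transcription factor TCF7 had -0.18 and the feedback inhibitor NKD1 had 0.29, each with an unadjusted p under 0.05.

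The clones were also compared among themselves, in a fit with line as a term, which tests against the spread between libraries of a line. Of the 14419 genes, 2799 differed among the 3 clones (19.4%, edgeR's quasi-likelihood test, adjusted p under 0.05), and 1074 did so without the replicate term. In the fit of the same form the mean of the clones against the mean of the parental samples gave 1388 genes. Against the parental samples, which all 3 share, 1911 genes were called in B7 (13.3%), 1792 in F6 (12.4%) and 339 in G6 (2.35%). Between the 2 parental samples 0 genes were called in edgeR, and 1492 had an unadjusted p under 0.05; DESeq2 was not run for this pair. The first principal component of the 10 libraries held 31.5% of the variance and followed the replicate number, and the second held 18.5% and placed B7 and F6 at opposite ends.

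The 8 genes with the widest range of clone means show how different the clones were, and they were ranked for that range. PXDN, which encodes the matrix enzyme peroxidasin, stood at 6.42, 6.12, 8.69 and 5.47 CPM in the parental libraries. It had no count in the 2 tunicamycin libraries of F6, which at 3 counts per library bounds it as at least 37.0-fold lower, and it was also at 0 in both DMSO libraries of F6. In B7 it stood at 9.93 and 8.47 CPM and in G6 at 6.24 and 4.81 CPM. SEMA3A, a secreted guidance cue, was at 33.5 to 51.6 CPM in parental libraries, 87.2 and 74.0 CPM in B7, 146.5 and 136.7 CPM in G6, and 5.90 and 5.35 CPM in F6. So F6 lay below the parental range and the other clones above it, with an adjusted p among clones of 1.02e-12 in edgeR. DCLK1, a microtubule-associated kinase, stood at 0.385 and 0.294 CPM in F6 against 4.75 to 6.16 CPM in parental libraries and 9.25 and 10.4 CPM in G6. TARID, a long noncoding RNA annotated as antisense, was at 0.128 and 0.343 CPM in F6, 6.398 and 8.83 CPM in B7 and 9.09 and 12.97 CPM in G6. Its counts are uncertain, because the sources used here do not say whether counting used the strand.

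The remaining 4 of these genes, ZNF91, ZNF222, ZNF136 and ZNF416, encode zinc-finger proteins, lie on chromosome 19 and were near 0 in B7. ZNF91, a KRAB repressor of retroelements, had no count in B7 in either treatment, at least 28.2-fold below the parental mean of 4.26 CPM. In G6 it stood at 1.18 and 0.732 CPM and in F6 at 3.98 and 2.50 CPM. ZNF136 was at 0.156 and 0.101 CPM in B7 and at 3.77 to 4.76 CPM in parental libraries. Of 11543 genes with a parental mean of at least 2 CPM, 5 were at least 10 times lower in B7, these 4 and ZNF530. In F6 the count was 4 (PXDN, DCLK1, TARID and VIM). In F6 2 genes were at least 10 times higher, the protease KLK5 (0.482 CPM in parental, 6.66 CPM in F6) and PROM2 (0.539 and 7.77 CPM), and in B7 0 were. In G6 and between the 2 parental samples the count was 0 either way. Among the 160 zinc-finger genes of chromosome 19 whose symbols start with ZNF, 19 were lower by more than 1 on the log2 scale in B7 (11.9%) and 2 each in F6 and G6 (1.25%), compared with 0.912%, 0.989% and 0.582% of the other genes in B7, F6 and G6. This group was chosen after its values were seen and has no test.

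**Figure D4:**
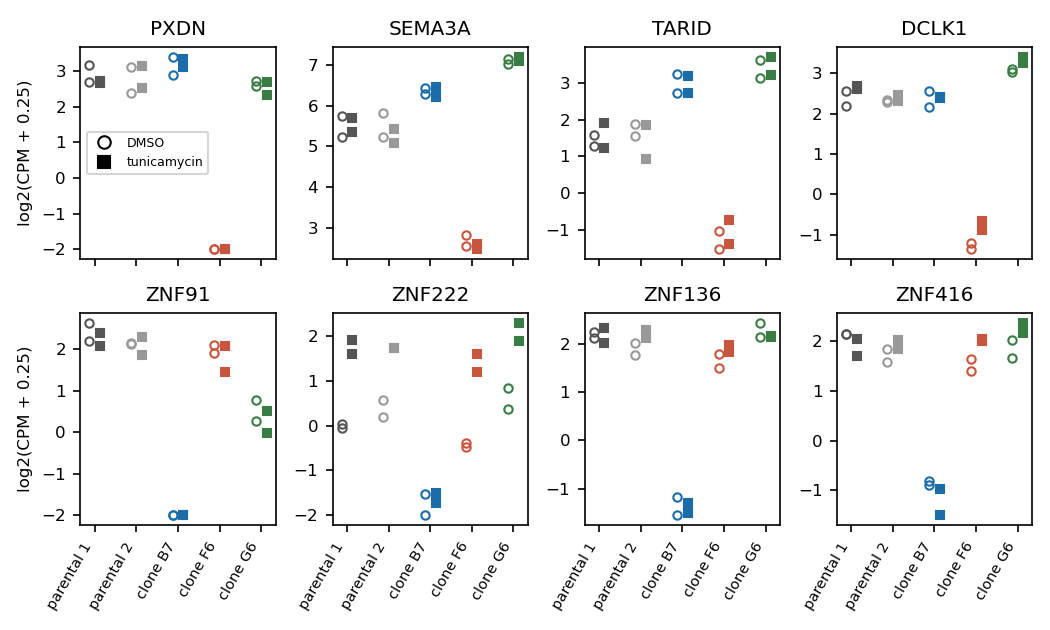
The 8 genes with the widest range of clone means, as log2(CPM + 0.25) (vertical axis) in each library by line; open circles are DMSO and filled squares tunicamycin. PXDN, SEMA3A, TARID and DCLK1 are lowest in F6 and the 4 zinc-finger genes are lowest in B7, in both treatments.

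Chromosome 8 stood apart in clone B7. Over its 394 genes with a mean count of at least 50, the median log2 fold change was 0.49 in B7 with 97.5% of genes above 0, but 0.00 in F6 and 0.00 in G6. By library, the median ratio of chromosome 8 genes to the parental mean of the same treatment and replicate number was 0.45 and 0.48 in the tunicamycin libraries of B7 and 0.44 and 0.47 in its DMSO libraries. In the 8 libraries of F6 and G6 it ran from -0.03 to 0.02. In windows of 20 Mb along the chromosome the B7 median ran from 0.55 in the first window to 0.37 in the last, and it was above 0 in each of them. For all other chromosomes the clone medians lay between -0.07 and 0.05. Chromosome 8 genes took 5.22 to 5.33% of all counts in the 4 libraries of B7 and 3.79 to 4.07% in those of F6 and G6. DNA copy number was not measured here, and this pattern was noticed after the values were seen.

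That pattern reached the averaged comparison, where chromosome 8 genes had a median of 0.19 and 91.1% lay above 0. Of the 853 genes higher at an unadjusted p under 0.05, 82 lay on chromosome 8 (9.61%), and of the 776 lower ones 2 did (0.258%), while the chromosome holds 3.47% of all genes tested. Of the 2799 genes that differed among clones, 342 lay there (12.2%). With the chromosome left out of the table the fit called 1 gene, again IGF2BP2, and 801 genes were higher at an unadjusted p under 0.05. Among list genes on the chromosome, TNFRSF10B, a death receptor induced by CHOP, had 0.45 in B7 and 0.01 and 0.02 in F6 and G6, the replication helicase subunit MCM4 had 0.48, -0.11 and -0.04, and the translocation factor TRAM1 had 0.32, -0.05 and -0.05 in the same order.

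**Figure D5:**
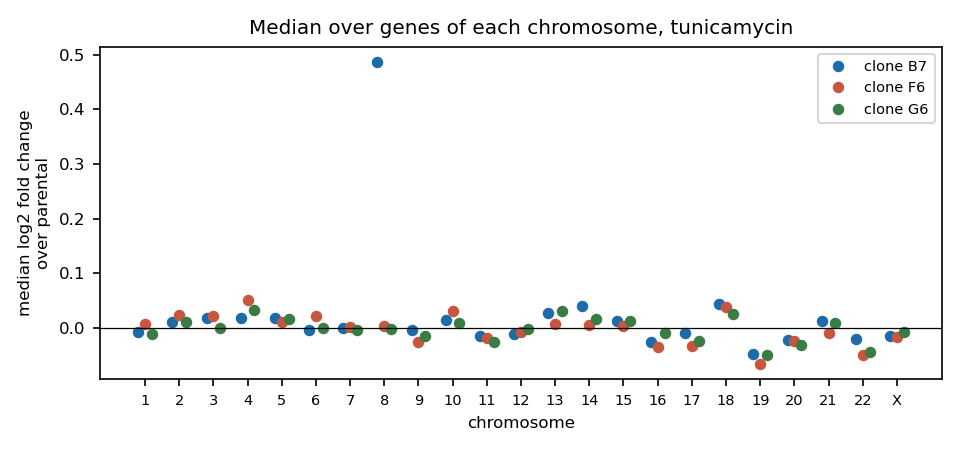
Median log2 fold change over the parental samples in tunicamycin (vertical axis) for the genes of each chromosome (horizontal axis), by clone. Chromosome 8 in clone B7 stands at 0.49, and every other point lies between -0.07 and 0.05.

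The sequencing depth and the identity of the cells set the frame for these values. Total counts of the 10 libraries ran from 16651438 to 22800160, and a count was seen for 21259 to 22287 genes in replicate 1 libraries and for 23423 to 24024 in replicate 2 libraries. The epithelial markers EPCAM, KRT8, KRT18, KRT19, CDH1, CLDN4 and CDX2 were present in every library, and VIL1 reached at most 2 counts. Summed epithelial markers ran from 3976 to 5168 CPM in parental and 3337 to 5697 CPM in knockout libraries. CDH1, E-cadherin, and CLDN4 were high in F6, with log2 values of 1.46 and 1.34 over the parental samples, while VIM (vimentin) was at a mean of 2.90 CPM in parental and 0.130 CPM in F6 libraries; their part in the differences of F6 was not tested. Of the 5 fibroblast markers COL1A1 was at 4.87 to 12.3 CPM and the other 4 had at most 1 count in any library. The 6 leukocyte and endothelial markers reached at most 5 counts.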

How the data were processed

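Counts per gene were measured by poly(A) RNA-seq in 32 libraries, and the deposited table gives whole-number counts for 60660 identifiers, not normalized; 42022 carried a symbol in the name table used here. STAR 2.7.5c and hg38 are named in the submitters' processing notes. The counting tool, the annotation and the use of strand are not given in the sources used here, and counts of overlapping or antisense genes are therefore uncertain, although the kit was directional per the labels' protocols. Groups came from sample titles. Positions and exon lengths are from GENCODE 29 on GRCh38, which may not be the release counted against; 14318 of 14419 genes tested were found in it.

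The 10 tunicamycin libraries were fitted with edgeR 4.0.16 in R 4.3.3 (TMM, filterByExpr, quasi-likelihood test, genotype and replicate number as terms, Benjamini-Hochberg adjustment over all genes tested, threshold 0.05). SEs and 95% intervals follow from the F statistic and treat libraries of a line as independent. CPM values use TMM factors of all 32 libraries. A fit with line and replicate number gave the clone values and the test among the 3 clones, and a fit of 20 libraries with line, replicate number and treatment gave the difference between treatments. Alternatives used DESeq2 1.42.0 and limma 3.58.1. The fit was tested on simulated counts drawn with no differences between clones or replicate numbers. That test does not show how the fit behaves when libraries share a clone.

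Same-numbered libraries deviated together: over 10 pairs of lines, r was 0.157 to 0.529 (median 0.406) and exceeded 0.1 in 10, so the numbers pair the libraries. Libraries of a line and treatment differed beyond counting error (chi-square per degree of freedom 4.97 to 14.9).

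Named genes were those of the lists, the 12 on each side with a symbol, a mean count of at least 50, no overlap between groups and the largest called change or, failing calls, the smallest unadjusted p, and the 8 called genes with the largest range of clone means. The comparison, the lists and the tests were chosen with earlier results of these data known. Lists are described by counts and medians, with no test; 264 of 308 list genes were tested, and a few results are not reported here. In single clones no fold is given for a gene without counts other than a bound at 3 counts per library, which covers counting error only.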

Additional observations from a re-analysis of the deposited data

Results flagged for a closer look

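Among the 32 genes named by rule, 64 sets of values (the parental and the knockout libraries of each gene) were checked for a library far from the others. Chance would mark about 1 in 20 sets of independent values. Libraries of a line are not independent and the genes were picked from these libraries, so that rate is only a rough guide here. In 2 of the 64 sets a library stood apart. MARCHF7 was at 78.1 CPM in replicate 1 of parental sample 2, below the other 3 parental libraries, and SCAMP1 was at 79.3 CPM in replicate 1 of clone B7, above the other 5 knockout libraries.

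For 11 of these 32 genes the change over parental cells differed between clones by edgeR's quasi-likelihood test. The adjusted p was 4.02e-08 for PXDN, 1.02e-12 for SEMA3A, 1.66e-08 for TARID and 1.32e-08 for DCLK1, which were lowest in F6. It was 1.29e-05 for ZNF91, 9.16e-07 for ZNF222, 6.95e-07 for ZNF136 and 1e-06 for ZNF416, which were lowest in B7. These 8 genes were picked for their range, so the p-values describe them and lend no separate support. The other 3 were PHACTR2 (0.00508) and UTRN (0.00577), nearest to parental cells in G6, and PEG10 (0.00173), lowest in F6.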

How the results depend on the processing

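The log2 fold change of IGF2BP2 ran from -0.91 to -0.82 over all settings and stayed past the threshold in each of these 26 but the counts summed per line (-0.86, edgeR adjusted p 0.0513). Leaving out 1 library gave -0.89 to -0.84 and 1 called gene each time. The count of 1 called gene also held without the replicate block (1 gene; -0.86 for IGF2BP2), so the paired analysis changed no call of this comparison, and with limma-voom, DESeq2 size factors, a filter at a mean CPM of 1, a joint fit of the 32 libraries, and without B7, either parental sample or chromosome 8. It moved to 37 with DESeq2, 492 with no filter (480 of them tested in the filtered fit), 0 with summed counts (edgeR, 750 at an unadjusted p under 0.05), 1388 with line as a term, 21 without F6 and 94 without G6; the cause was not tested. The 24 genes named for the knockout kept their sign in all 599 values, and 20, 23, 18 and 6 of the 23 beside IGF2BP2 became called with DESeq2, line as a term, no filter and without G6. These genes were picked from the same libraries for no overlap between groups and a small p. Their kept signs and added calls therefore lend no separate support.

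The difference between treatments gave 0 called genes in edgeR and DESeq2, 10 with no filter and 1 without G6 (RGS3). In DMSO, DESeq2 called 25 genes; without B7, F6 and G6 the counts were 1, 36 and 161. Without the replicate block 1074 genes differed among clones, 2 were called in DMSO and 0 for the difference between treatments.

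With 3 clones and 2 parental samples, clone and genotype differences cannot be fully told apart. Depth limits the precision for genes of a few CPM.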
